A study of Sus scrofa with 8 samples.

Results

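Open chromatin was examined around 40 genes of DNA replication and mitosis in porcine muscle satellite cells. Peaks of 8 libraries were merged wherever they overlapped by 1 bp, and a merged region belonged to a listed gene when the nearest end of any protein-coding gene, within 50 kb, was an end of that gene. The rule gave 184 regions at 39 genes, of 178498 regions in all and 114950 linked to some gene. MCM5 is on no placed chromosome in the gene table and had none. Of the 184 regions, 51 lay within 1 kb of a gene end (gene-end regions) and 133 lay farther away (distal regions). The gene table gives no strand, exons or introns, so a gene end may be a start or a finish, and "low" and "high" name the end with the lower and the higher coordinate. Coordinates are those of Sscrofa11.1.

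The assay was ATAC-seq, in which a transposase cuts accessible DNA and the cut fragments are sequenced. Satellite cells are resident muscle stem cells. There are 4 labelled groups with 2 libraries in each: WT at 0 h, WT at 60 h, CBP at 0 h and CBP at 60 h, where 0 h stands for proliferation and 60 h for differentiation. A treatment text shared by all samples names SGC-CBP30, an inhibitor of the bromodomain of the histone acetyltransferase CBP, at 5 uM/ml as labelled, for 48 h of proliferation and 60 h of differentiation. Which groups received the compound is not stated in the labels, which also name the cell line C3H although the organism is pig. The age and sex of the animals, and whether replicates are separate cultures, are not given, so p-values reflect library-to-library spread, part of which may be technical.

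Dividing cells first load the MCM helicase onto origins with the help of ORC, CDC6 and CDT1, then fire the origins with CDC45 and GINS and copy DNA with polymerases that PCNA clamps to the template. E2F transcription factors drive many of these genes at the start of S phase, and a later program of cyclin B, PLK1 and the Aurora kinases carries the cell through mitosis. Satellite cells proliferate before they differentiate, and they leave the cell cycle as they differentiate.

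The lists held 121757 to 135528 peaks at 0 h and 82696 to 88871 at 60 h. The median summit pileup, the number of fragments over a peak's highest point, was 52 to 68 at 0 h and 30 to 35 at 60 h over the 50575 regions called in all 8 libraries. Depth and time cannot be told apart in these lists, so calls are also given with equal peak numbers, which keeps the strongest 82696 peaks of each library. In bulk libraries, fewer open cells and less opening per cell cannot be told apart either. Of 10 satellite cell and myogenic marker genes, 8 had a gene-end call in all 8 libraries, among them PAX7, MYF5 and MYOD1, while MEF2C had 7 and ITGA7 had 3. PDGFRA, CDH5 and ADIPOQ, markers of fibroblasts, endothelium and fat cells, had no call in any library. Other markers of fibroblasts, endothelium, immune cells and fat had calls in 2 to 8 libraries, so a gene-end call alone did not separate cell types, and the part of other cells in the results was not tested.

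The gene ends of the replication and mitosis genes were open in every library, at both times and under both labels. Each of the 39 placed genes had a region called in all 8 libraries within 1 kb of an end, against 67.1% of 19467 protein-coding genes. For 38 genes this region was its own by the nearest-end rule. AURKB, the kinase of the chromosomal passenger complex, was the exception: the region near its end was nearer to the end of another gene, and the 3 regions linked to AURKB lay inside it, 2597, 4091 and 4264 bp from an end. Of the 51 gene-end regions 76.5% were called in all 8 libraries, against 65.8% of all 19068 gene-end regions. Of the 133 distal regions 24.1% were, against 25.1% of all 95882 distal regions.

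The summits of most of these regions lay close to the annotated ends. In 22 of 39 gene-end regions called in all 8 libraries the median summit lay within 100 bp of the annotated end, and in 36 it lay within 600 bp. The exceptions were PLK1, CDC6 and CCNE2, with median offsets of −1343.5, −1253.5 and 2231.5 bp, where a negative offset is toward lower coordinates. The summit of a region ranged over a median of 57 bp across the 8 libraries. At CCNB2, which encodes a cyclin B of mitosis, all 8 summits lay within 9 bp of each other, and at E2F1 within 12 bp. At 6 of the gene-end regions the end of another gene lay at the same distance from the region: AP4M1 beside MCM7, PRKDC beside MCM4, LOC100620470 beside PRIM1, VPS35 beside ORC6, UFD1 beside CDC45 and CSTF1 beside AURKA. Signal there cannot be given to 1 gene of the pair.

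Fewer regions of these genes were called at 60 h than at 0 h, mostly away from gene ends. Of the 184 regions, 129 and 142 were called in the WT 0 h libraries and 136 and 126 in the CBP 0 h libraries. At 60 h the WT libraries called 92 and 93 and the CBP libraries 94 and 95. All 4 libraries of 0 h lay above all 4 of 60 h. These counts are 68.5% to 77.2% of the regions at 0 h and 50% to 51.6% at 60 h, beside 65.6% to 74.7% and 46.2% to 48.4% of all linked regions. Of the 51 gene-end regions, WT called 46 and 47 at 0 h and 40 and 42 at 60 h. CBP called 47 and 46 at 0 h and 41 and 40 at 60 h. These are 90.2% to 92.2% at 0 h and 78.4% to 82.4% at 60 h. Of all gene-end regions, 84.1% to 89.0% and 73.7% to 75.5% were called. With equal peak numbers the total was 97, 97, 99 and 97 at 0 h and 91, 93, 91 and 91 at 60 h, a far smaller gap. That is 52.7% to 53.8% and 49.5% to 50.5%, beside 47.0% to 48.1% and 45.3% to 46.6% of all linked regions. The plot of calls by library sets the shares beside those of all linked regions.

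**Figure D1:**
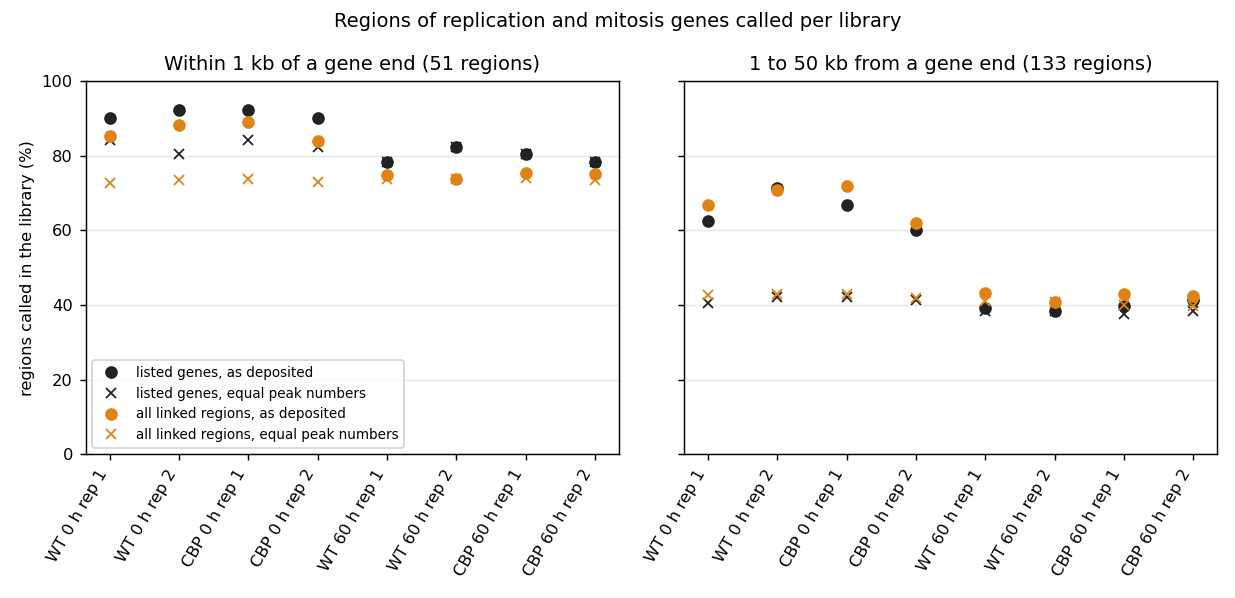
Share of the regions of the listed genes (black) and of all linked regions (orange) called in each library, for gene-end regions on the left and distal regions on the right. Circles use the peak lists as deposited and crosses use equal peak numbers. Distal shares of the listed genes lie at 60.2% or more at 0 h and at 41.4% or less at 60 h as deposited, and between 37.6% and 42.1% with equal peak numbers. Those of all linked regions lie at 61.9% or more and at 43.2% or less, and between 39.7% and 43.0%.

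A region was counted as opened between groups when the later (or CBP) group called it in 2 of 2 libraries and the other group in 0 of 2, and as closed in the reverse case. By this rule 42 regions at 24 genes opened or closed in at least 1 of 5 comparisons, 37 of them distal. This is 22.8% of the 184 regions, beside 27.8% of all linked regions. At gene ends it is 5 of 51, beside 13.4%, and the distal regions stand at 27.8%, beside 30.6%. No p-value is given for these counts: in the 4 comparisons of 2 against 2 libraries an exact p cannot go below 0.333, and in the comparison of 4 against 4, where it could reach 0.0286, the genes were chosen with results of these data known.

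From 0 h to 60 h the WT libraries closed 22 of the 184 regions and opened 2. Among all linked regions 14.3% closed and 0.575% opened, and 22 of 184 is 12%. At gene ends 4 closed and 0 opened, beside 7.04% and 0.257% of all gene-end regions, and 18 distal regions closed and 2 opened, beside 15.7% and 0.638%. The CBP libraries also closed 22, and opened 3, beside 14.5% and 1.36% of all linked regions. Here 2 closed and 0 opened at gene ends, beside 6.95% and 0.493%, and 20 closed and 3 opened distally, beside 15.9% and 1.54%. With equal peak numbers the closed counts were 3 for WT and 9 for CBP, beside 3.89% and 5.57%, and the opened counts 3 and 4, beside 2.62% and 3.64%. The closed share of the listed genes was near or below the background by both ways of counting. For counts that leave out a library, here and in the comparisons below, no share of all linked regions is given. Those counts cannot be set beside the shares above. Leaving out a library loosens the rule, and the WT closed count was 44 without WT 0 h replicate 1, 33 without WT 0 h replicate 2 and 35 without WT 60 h replicate 2. The CBP closed count was 42 without CBP 0 h replicate 2 and 33 without CBP 0 h replicate 1. The opened count was 7 for WT without WT 60 h replicate 2, and 8 for CBP without either CBP 60 h library.

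Over all 8 libraries, 9 regions were called in 4 of 4 libraries at 0 h and in none at 60 h, beside 5.47% of all linked regions, and 1 region did the reverse, beside 0.109%. At gene ends 1 closed and 0 opened, beside 2.39% and 0.0315%, and distally 8 closed and 1 opened, beside 6.09% and 0.124%. With equal peak numbers 1 closed and 1 opened, beside 1.27% and 0.689%. The closed regions belonged to 8 genes. Among the replication genes, MCM2 and MCM6 (subunits of the helicase), GINS1 (part of the active helicase) and RFC3 (part of the loader of PCNA) had 1 each, 8252, 13012, 1435 and 39454 bp from a gene end. E2F7, a repressor of E2F targets, had 1 at 8190 bp. Of the genes of mitosis, BUB1, a kinase of the spindle checkpoint, had 1 at 1150 bp, and MKI67, which encodes the proliferation marker Ki-67, had 1 at 1380 bp and 1 at 41462 bp. The remaining region, the only one of the 9 at a gene end, lay 266 bp from an end of PLK1, a kinase of mitotic entry, inside the neighbouring gene ERN2.

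The values behind these calls were a few times the background. At the PLK1 region the authors' fold over the local background was 2.83 and 3.36 in WT 0 h and 3.24 and 3.05 in CBP 0 h. At the MCM2 region (chr13:72638630-72639525, inside the gene) it was 4.21 and 4.25 in WT 0 h and 4.92 and 5.56 in CBP 0 h. The MCM2 region was the only one of the 9 that met the rule with equal peak numbers.

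The region that opened lay 3807 bp from an end of CDC6, which loads the MCM helicase, between genes at chr12:22096552-22097474. Its fold was 3.52 and 3.5 in WT 60 h and 2.64 and 2.34 in CBP 60 h, and no 0 h library called it. It also met the rule with equal peak numbers, but not when only peaks with a −log10 q of at least 5 were used. Without WT 60 h replicate 2 the opened count was 2.

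Beyond these, the WT libraries closed regions at 3 further gene ends: RRM2 (a subunit of ribonucleotide reductase, which makes deoxyribonucleotides) at 652 bp, CDT1 (a licensing factor) at 434 bp and GINS2 at 879 bp. None of these met the rule with equal peak numbers. The other WT closed regions lay near RFC2 (2293 and 8678 bp), RRM2 (21475), E2F7 (12636 and 47922), GINS2 (47458), E2F2 (3983), TYMS (5118), ORC1 (7660) and RFC3 (49188). A region 10133 bp from CDC45 opened in WT.

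The CBP libraries closed the region at the low end of MKI67 (chr14:137265612-137267265). Its fold was 4.75 and 3.96 in WT 0 h and 4.37 and 5.01 in CBP 0 h. At 60 h it was called only in WT replicate 2, at 3.32. They also closed a region 2404 bp from CCNE2, a cyclin of S phase entry, which lies inside INTS8 at chr4:41824274-41825650. There the fold was 7.71 and 7.48 in WT 0 h, 8.58 and 7.83 in CBP 0 h, and 6.79 and 5.11 in WT 60 h, with no call in CBP 60 h. Both met the rule with equal peak numbers. Other CBP closed regions lay near BUB1B (7345 bp), BUB1 (4035), PRIM1 (4085), CCNE1 (26383 and 8304), RFC3 (46304 and 42803), RFC4 (1007), CDC45 (10133), MCM6 (25128) and GINS1 (1156). Opened in CBP were regions near E2F2 (1054 bp), MCM3 (23470) and CDC6 (3807).

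**Figure D2:**
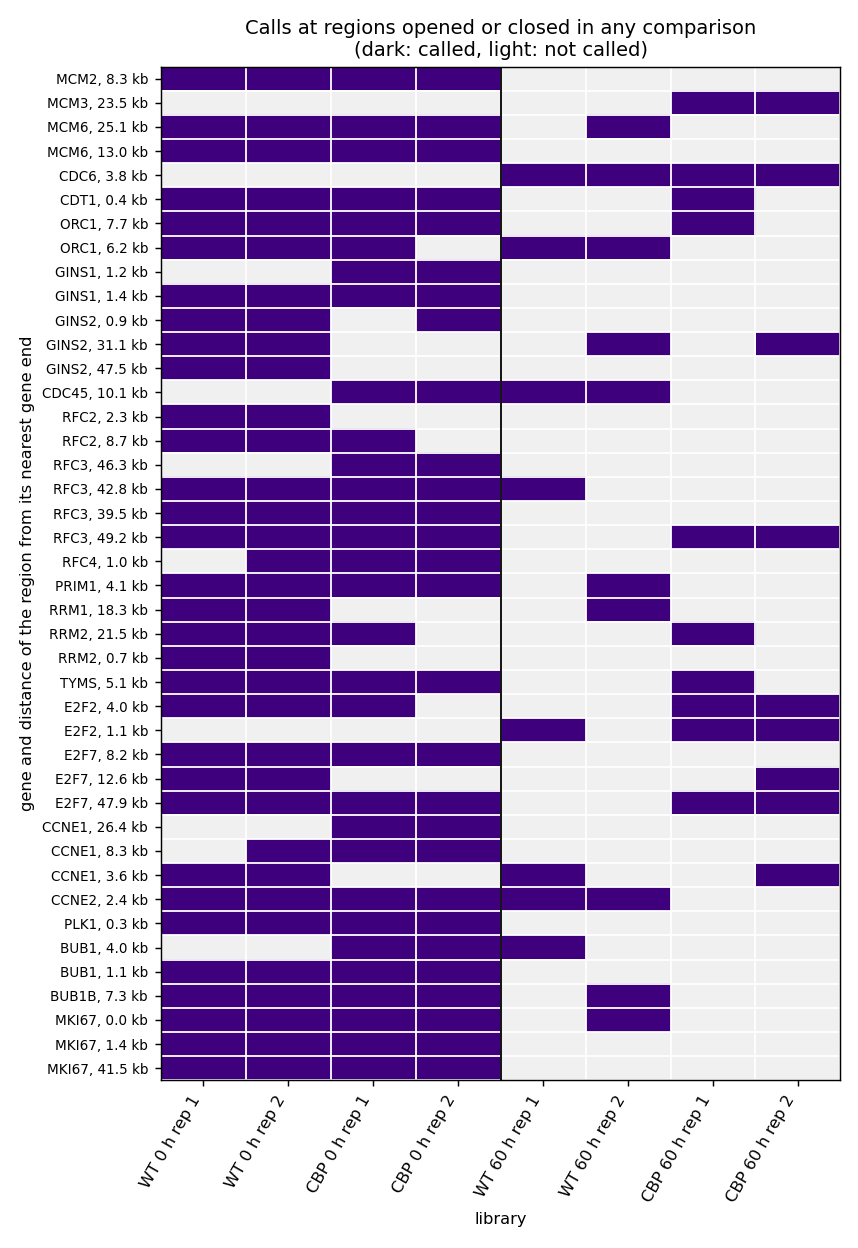
Calls in each library (columns, 0 h left of the line and 60 h right of it) at the 42 regions that opened or closed in at least 1 comparison (lines, named by gene and distance in kb). Dark cells are calls. Most lines are dark at 0 h and light at 60 h, and the CDC6 line at 3.8 kb is dark only at 60 h.

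Between the labels few regions differed. At 0 h, 5 regions opened in CBP against WT and 7 closed, beside 2.23% and 3.35% of all linked regions. Of these, 1 closed region lay at a gene end, beside 1.25% of all gene-end regions (0.97% opened), and the other 5 opened and 6 closed regions were distal, beside 2.47% and 3.77%. With equal peak numbers 5 opened and 2 closed, beside 1.85% and 2.35%. The opened ones lay near BUB1, CCNE1, RFC3, CDC45 and GINS1, and the closed ones near RFC2, RRM2, E2F7, GINS2 (2 regions), CCNE1 and RRM1. Of these 12, only the CCNE1 region at 3573 bp, closed, met the rule with equal peak numbers. The opened count was 11 without CBP 0 h replicate 1 and 15 without replicate 2, and the closed count was 19 and 14 without WT 0 h replicate 1 and 2, and 11 without CBP 0 h replicate 1.

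At 60 h, 4 regions opened in CBP against WT and 3 closed, beside 3.14% and 3.17% of all linked regions, and all 7 met the rule with equal peak numbers, when 4 opened and 5 closed in all, beside 2.77% and 3.45%. All were distal, beside 3.41% opened and 3.49% closed among all distal regions and 1.76% and 1.56% among gene ends. The opened regions lay near E2F7 (47922 bp), E2F2 (3983), MCM3 (23470) and RFC3 (49188). At the RFC3 region the fold was 4.42 and 5.53 in WT 0 h, 5.91 and 5.59 in CBP 0 h and 4.21 and 4.01 in CBP 60 h, and only WT 60 h lacked a call. The MCM3 region was called in CBP 60 h alone, at 4.19 and 4.21. The closed regions lay near CCNE2 (2404 bp), ORC1 (6241) and CDC45 (10133). The opened count was 8 without WT 60 h replicate 2 or CBP 60 h replicate 1 and 12 without CBP 60 h replicate 2. The closed count was 8 without either WT 60 h library, and 6 and 5 without CBP 60 h replicate 1 and 2.

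Where a region was called in every library, its strength could be compared. Of the 184 regions, 71 were, 39 at gene ends and 32 distal. Each was ranked within a library by the authors' fold among the same 50575 regions, and the ranks, as normal scores, were tested with limma over all 8 libraries with Benjamini-Hochberg adjustment over all 50575. A change of 1 is 1 SD of the normal scores, and a percentile of 100 is the strongest region. As a second scale, the summit pileup of each peak was recovered from its fold and p-value and divided by the library's median (relative pileup).

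By fold rank, most gene ends of these genes stood higher at 60 h than at 0 h, but by pileup rank they did not. By fold, 36 of 71 regions passed as higher and 7 as lower, beside 18.9% and 15.2% of all regions. At gene ends 29 of 39 passed as higher and 1 as lower, beside 40.7% and 3.17% of all 12550 gene ends in the test, and the median change was 0.76 beside 0.45. Ranked by pileup instead, 2 passed as higher and 1 as lower, beside 11.1% and 3.73%, and the median was −0.04 beside 0.10, which turns the direction. Ranked by −log10 p, 5 were higher and 1 lower, beside 17% and 2.88%. Ranked by fold among gene ends only, 12 were higher and 1 lower, beside 10.3% and 10%. Without any 1 library the median change in fold rank at these gene ends was 0.68 to 0.81, beside 0.43 to 0.47 over all gene ends. Such a fit leaves 1 library in a group, so how the counts hold in it is not shown here.

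The relative pileup shows how far the scales differ. Between the times it was multiplied by a median of 1.21 at the 39 gene ends, with quartiles of 1.13 and 1.32. It lay above 1 at 38 of them, beside 10937 of all 12550 gene ends. The median over all gene ends was 1.27 and over all regions 1.09. So the pileup of these gene ends was higher relative to the median region at 60 h, by a factor below that of all gene ends. By fold, all 60 h libraries lay above all 0 h libraries at 28 of the 39 gene ends, beside 43.0% of all gene ends. The share of all gene ends that did so in relative pileup is not given here.

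**Figure D3:**
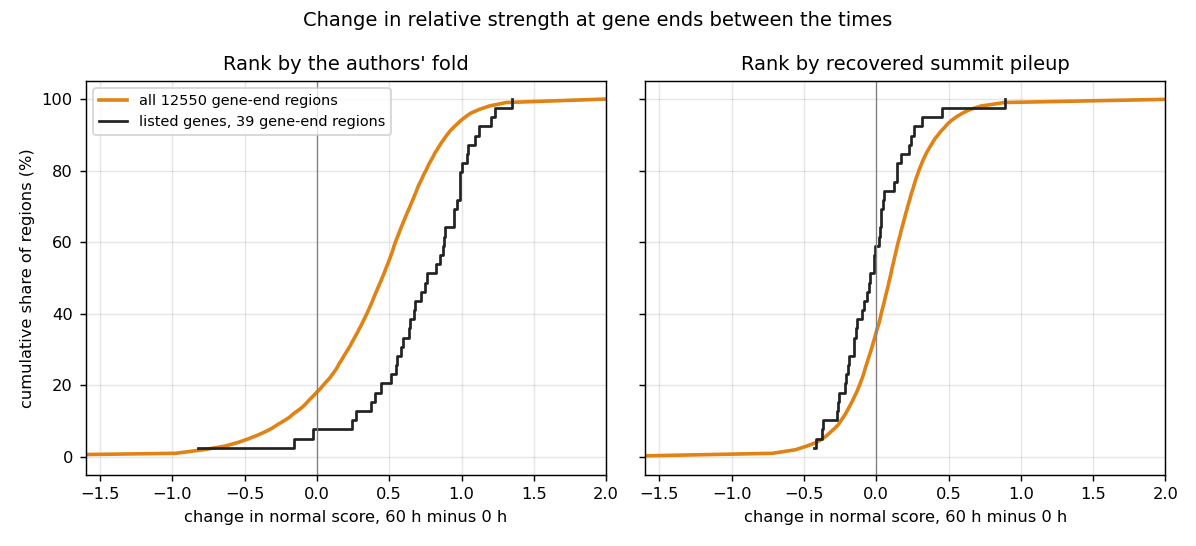
Cumulative share (%) of gene-end regions by their change in normal score, 60 h minus 0 h, ranked by fold on the left and by recovered summit pileup on the right. Black steps are the 39 gene ends of the listed genes and orange lines all 12550 gene ends. Black lies to the right of orange by fold (medians 0.76 and 0.45) and to the left by pileup (−0.04 and 0.10).

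By fold rank all 5 cyclin gene ends passed as higher, as did all 3 of nucleotide supply and 11 of 14 of origin licensing and helicase. So did 5 of 7 of mitosis, 2 of 3 E2F genes and 3 of 7 of synthesis. Over all gene ends 40.7% passed as higher, and the roles hold only 3 to 14 regions each. In both ranks 2 gene ends passed as higher, beside 7.04% of all gene ends. Only E2F1 and CCNE1 also passed as higher by pileup rank, while RRM2 passed as lower there. E2F1 and CCNE1 were past the threshold under every one of 15 alternatives, with adjusted p-values in limma of at most 0.0138 and 0.0300.

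CCNE1 encodes cyclin E, which starts S phase with CDK2. Its gene end had a relative pileup of 0.85 and 0.82 in WT 0 h, 1.03 and 0.88 in CBP 0 h, 1.66 and 1.5 in WT 60 h and 1.69 and 1.81 in CBP 60 h. All 4 libraries of 60 h lay above all 4 of 0 h, and the mean went from 0.90 ± 0.09 to 1.66 ± 0.13 (SD, n = 4). It rose by 1.20 (SE 0.22) in fold rank and 0.89 in pileup rank, with adjusted p = 0.0037 and 0.0015 in limma.

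E2F1 is an activator of S phase genes. The relative pileup at its gene end was 1.37 and 1.34 in WT 0 h, 1.28 and 1.29 in CBP 0 h, 1.77 and 1.93 in WT 60 h and 2.16 and 2.06 in CBP 60 h. The times did not overlap. It rose by 1.23 (SE 0.16) in fold rank and 0.46 in pileup rank, with adjusted p = 0.0014 and 0.0138 in limma.

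The largest change by fold at a gene end was at PCNA, the sliding clamp of the polymerases. Its fold percentile was 85.3 and 81.5 in WT 0 h, 80.6 and 71.3 in CBP 0 h, 98.3 and 98.1 in WT 60 h and 98.2 and 99.3 in CBP 60 h. All 60 h libraries lay above all 0 h libraries, as by fold at 28 of the 39 gene ends and 43.0% of all gene ends. The fold rank rose by 1.35 (SE 0.18, adjusted p = 0.0014 in limma), while the pileup rank changed by 0.14 with an adjusted p = 0.526, and the mean relative pileup was 2.29 ± 0.08 at 0 h and 3.32 ± 0.12 at 60 h (SD, n = 4).

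RRM2 went opposite ways in the 2 ranks. Its fold percentile was 15.4 to 22.3 in the 4 libraries of 0 h and 54.1 to 62.8 in those of 60 h. The fold rank rose by 1.10 (adjusted p = 0.0021 in limma) and the pileup rank fell by 0.41 (adjusted p = 0.0303). Its relative pileup, which is no rank, was 2.38 and 2.43 in WT 0 h, 2.26 and 2.46 in CBP 0 h, 2.80 and 3.13 in WT 60 h and 3.09 and 2.97 in CBP 60 h, so all 60 h libraries lay above all 0 h libraries on that scale. The largest other changes in fold rank were at RFC2 (1.12), CDC20 (1.05), MCM3 (1.04 at the high end and 0.64 at the low end) and MKI67 (1.01). The change in pileup rank was −0.38 at CDC20, an activator of the anaphase-promoting complex, −0.04 at the high end of MCM3 and 0.15 at its low end. The relative pileup at these 3 regions was multiplied by 1.12, 1.31 and 1.08 between the times. The remaining gene ends that passed by fold were CDC45, ORC1, RRM1, RFC4, AURKA, CCNA2, E2F7, CCNB1, CCNE2, PLK1, GINS2, MCM7, CDT1, TOP2A, TYMS, CCNB2, MCM2, ORC6, GINS1 and MCM4, at 0.55 to 0.99.

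The 1 lower gene end was at CDC6. The region (chr12:22099357-22100873) lay 408 bp from the end and among the weakest by fold, at percentile 10.9 and 8.7 in WT 0 h, 10.6 and 16.7 in CBP 0 h, 1.2 and 0.9 in WT 60 h and 2.4 and 6.5 in CBP 60 h. It fell by 0.82 in fold rank (adjusted p = 0.0087 in limma), while its pileup rank changed by 0.05 (adjusted p = 0.751). Its summit ranged over 1242 bp across the 8 libraries, with a median offset of −1253.5 bp from the end. The highest point of the region was thus not at the same place in all libraries. The 9 gene ends that passed in neither direction were MCM6, PRIM1, MCM10, RFC3, POLA1, E2F2, BUB1, POLE2 and BUB1B, with changes from 0.55 to −0.16.

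**Figure D4:**
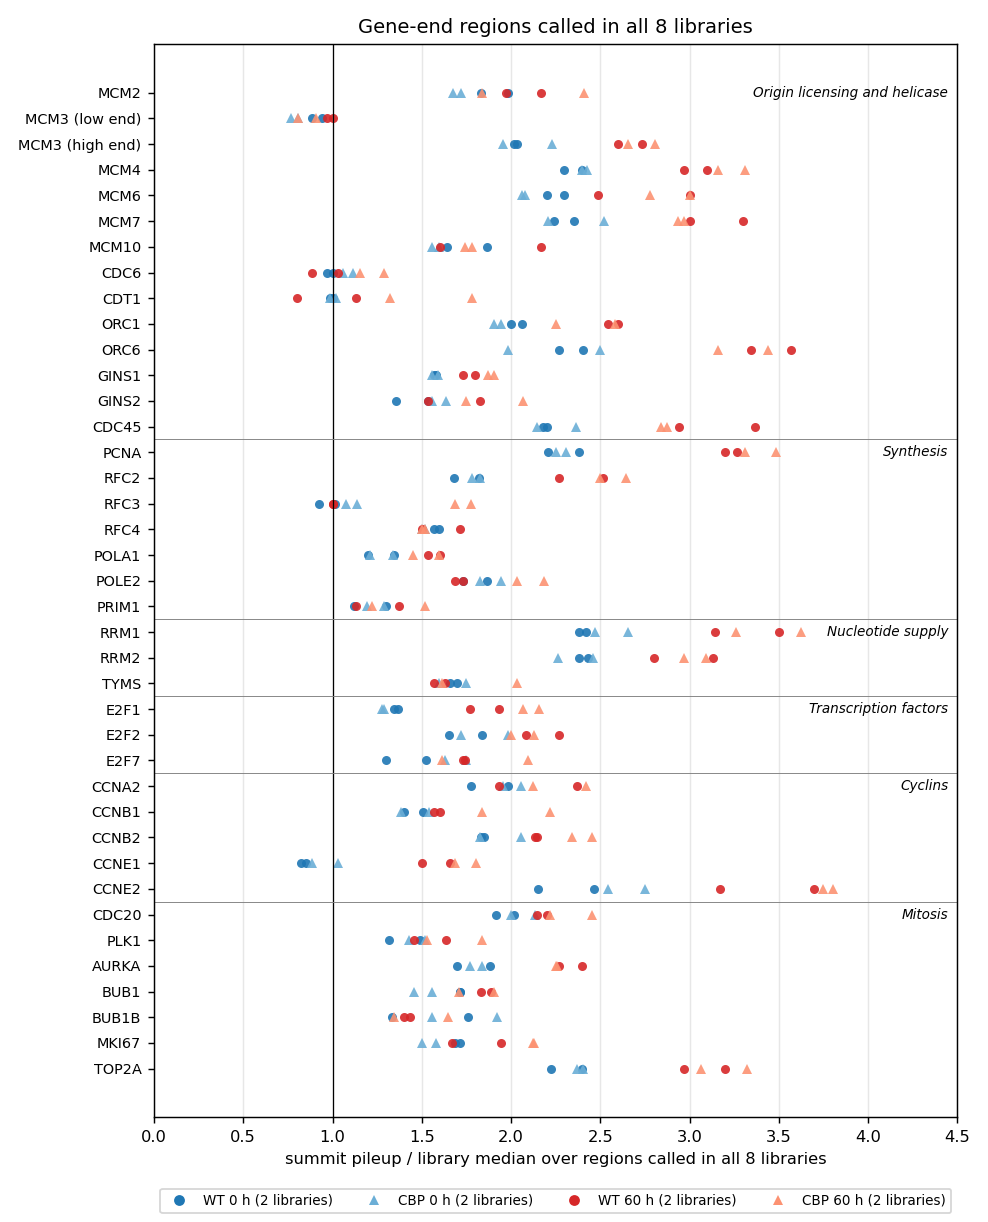
Summit pileup relative to the library median (1 is the median) for the 39 gene-end regions called in all 8 libraries, grouped by role. Each point is a library, with 2 per group. The 60 h points of CCNE1, E2F1 and PCNA lie to the right of all their 0 h points. The same holds at other genes, among them MCM7, RFC2 and AURKA. The 60 h points of BUB1B overlap its 0 h points.

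Within WT, 14 gene ends were higher and 1 lower at 60 h by fold in limma, beside 9.35% and 0.956% of all gene ends. CCNE1 (1.65), RFC2 (1.26), CDC45 (1.20), MCM3 (1.13) and PCNA (1.13) had the largest changes, and CDC6 (−1.0), POLE2 (−0.15), BUB1 (−0.08), RFC3 (-0.002) and BUB1B (0.04) the lowest. With the distal regions, 15 were higher and 2 lower, beside 3.98% and 4.74% of all regions (distal 1 and 1, beside 2.48% and 4.65%). A fit without 1 library leaves 1 library in a group, so how these counts hold without a library is not shown here. The median change in WT over the 71 regions was 0.52, and 0.45 to 0.55 when any 1 of the 8 libraries was left out. At the 39 gene ends the median was 0.75, and 0.70 to 0.78 when any 1 library was left out. Over all gene ends it was 0.44, and 0.39 to 0.49.

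Within CBP, 14 gene ends were higher and none lower in limma, beside 17% and 1.47%. PCNA (1.56), E2F1 (1.41), MKI67 (1.31), CCNB1 (1.22) and CDT1 (1.21) had the largest changes, and CDC6 (−0.64), BUB1B (−0.36), POLE2 (0.09), E2F2 (0.21) and POLA1 (0.22) the lowest. With the distal regions 16 were higher and 6 lower, beside 8.81% and 9.01% (distal 2 and 6, beside 6.4% and 10.4%). The median change in CBP at the 39 gene ends was 0.75, and 0.72 to 0.79 when any 1 library was left out. Over all gene ends it was 0.47, and 0.43 to 0.50. How the counts hold without a library is not shown here. By pileup rank the higher counts were 2 in WT and 4 in CBP, beside 3.35% and 9.14%.

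The difference of the time changes between CBP and WT passed at none of the 71 regions in limma, by fold, −log10 p or pileup rank, and at 0% of all regions. At an unadjusted p under 0.05 by fold there were 4 of 71, and 5610 of all 50575. The gene ends with the largest differences were CDT1 (0.93), RFC3 (0.80), CCNB1 (0.67), BUB1 (0.65) and MKI67 (0.62), and on the other side CCNE1 (−0.89), E2F7 (−0.44), CCNE2 (−0.43), CDC45 (−0.43) and BUB1B (−0.41).

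At 0 h no region of these genes passed between CBP and WT in limma, beside 0% of all regions. None of the 71 reached an unadjusted p under 0.05, while 3556 of all 50575 regions did, and the lowest adjusted p was 0.723. No region passed by pileup rank either, where 24 of all regions (0.0475%) were higher and 187 (0.37%) lower. The largest changes at gene ends were at CCNE1 (0.53), RFC2 (0.50), RFC3 (0.46), GINS2 (0.35) and BUB1B (0.31), and at BUB1 (−0.44), MKI67 (−0.42), MCM10 (−0.28), PCNA (−0.26) and GINS1 (−0.23).

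At 60 h the CBP libraries differed from WT by fold at 1 gene end and 1 distal region, beside 1.44% of all regions higher and 1.92% lower (gene ends 0.653% and 0.319%, distal 1.33% and 2.4%). By pileup rank the same gene end passed as higher and 4 distal regions as lower, beside 5% and 6.47% of all regions and 8.08% of distal regions lower. These 4 were the POLE2 region that passed by fold, and regions 38525 bp from RRM2, 10210 bp from MCM3 and 4706 bp from E2F1. The gene end was that of RFC3 (chr11:10145878-10147114). Its summit pileup was 61 and 62 in WT 0 h, 73 and 59 in CBP 0 h, 35 and 30 in WT 60 h and 54 and 55 in CBP 60 h. Relative to the library median this was 1.02 and 0.93, 1.07 and 1.13, 1.00 and 1.00, and 1.69 and 1.77, so the CBP 60 h libraries stood above the other 6. The difference at 60 h was 1.27 (SE 0.24, adjusted p = 0.0286 in limma) by fold and 0.75 by pileup rank (adjusted p = 0.0183). Without any 1 of the 8 libraries the adjusted p in limma was 0.0542 to 0.0809, past the threshold in none. The next gene ends, none of which passed, were CDT1 (0.82), CCNB1 (0.57), CDC6 (0.56) and CCNA2 (0.34), and on the other side CCNE2 (−0.38), AURKA (−0.38), CCNE1 (−0.37), MCM3 at its low end (−0.32) and ORC6 (−0.29).

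The distal region lay inside POLE2, which encodes a subunit of the leading-strand polymerase, 7154 bp from an end (chr1:179521318-179522737). Its summit pileup was 98 and 106 in WT 0 h, 86 and 58 in CBP 0 h, 47 and 41 in WT 60 h and 12 and 11 in CBP 60 h. Relative to the library median this was 1.63 and 1.58, 1.26 and 1.12, 1.34 and 1.37, and 0.38 and 0.35. The 2 CBP 60 h libraries lay far below the other 6. The difference at 60 h was −2.18 (SE 0.30) by fold and −2.59 by pileup rank, with adjusted p = 0.0128 and 0.0013 in limma, and it passed under all 14 alternatives, with an adjusted p of at most 0.0450. The time change was −2.44 (SE 0.30, adjusted p = 0.0037) in CBP and −0.33 (adjusted p = 0.479) in WT, and the difference of these, −2.11 (SE 0.42), did not pass (adjusted p = 0.169). The gene end of POLE2 itself changed by −0.03 between the times (adjusted p = 0.921).

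Distal regions of the listed genes moved both ways between the times. Of 32, 7 were higher and 6 lower by fold, beside 13.1% and 16.9% of all distal regions. The AURKB region at 4264 bp went opposite ways in the 2 ranks. It rose by 0.61 in fold rank (adjusted p = 0.0227 in limma) and fell by 0.44 in pileup rank (adjusted p = 0.0209). In both ranks, 4 of the 71 regions passed as higher and 3 as lower, gene ends included, beside 5.23% and 7.28% of all regions. Besides POLE2, 3 distal regions passed under all 14 alternatives. RFC3 is annotated over 379 kb, and its gene-end region lies at the low end. A region 18699 bp beyond the high end of RFC3, between genes (chr11:10543171-10544492), had a relative pileup of 0.97, 0.73, 0.88 and 0.90 in WT and CBP at 0 h and 0.54, 0.50, 0.62 and 0.45 at 60 h. It fell by 1.81 (SE 0.24, adjusted p = 0.0014 in limma), and by 0.87 in pileup rank. Its 60 h libraries all lay below its 0 h libraries.

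A region 5215 bp inside E2F2, another activator of the family (chr6:81392937-81393647), had a relative pileup of 1.05, 1.01, 0.79 and 0.85 at 0 h and 1.69, 1.63, 1.69 and 1.68 at 60 h, with no overlap. It rose by 1.01 (SE 0.19, adjusted p = 0.0048 in limma). A region 38790 bp from RRM1, the large subunit of ribonucleotide reductase (chr9:5986004-5987361), had 0.62, 0.78, 0.90 and 0.69 at 0 h and 0.91, 1.17, 1.09 and 1.19 at 60 h, and rose by 1.19 (SE 0.23, adjusted p = 0.0051).

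At RRM2, 38525 bp away (chr3:126317517-126318673), the relative pileup was 0.72, 0.64, 0.76 and 0.73 at 0 h, 0.60 and 0.70 in WT 60 h and 0.47 and 0.39 in CBP 60 h. It fell between the times by 0.75 (adjusted p = 0.0165 in limma) by fold and by 0.59 (adjusted p = 0.0208) by pileup rank. Within WT the change by fold was −0.03 (adjusted p = 0.948 in limma), while within CBP the region fell by 1.47 (adjusted p = 0.0099). The difference of these did not pass (adjusted p = 0.238). CBP against WT at 60 h was −1.07 by pileup rank (adjusted p = 0.0172) and −1.10 by fold (adjusted p = 0.0597). The MCM3 region at 10210 bp (chr7:46114635-46115736) differed there by −0.99 in pileup rank (adjusted p = 0.0349 in limma) and −0.88 by fold (adjusted p = 0.174).

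A region 4706 bp from E2F1 (chr17:37183293-37184644) had 1.20 and 1.37 in WT 0 h, 1.40 and 1.52 in CBP 0 h, 1.11 and 1.00 in WT 60 h and 0.66 and 0.74 in CBP 60 h. It passed between the times by pileup rank (−0.83, adjusted p = 0.0020 in limma) but not by fold (−0.41, adjusted p = 0.135). CBP against WT at 60 h was −0.69 by pileup rank (adjusted p = 0.0332) and −1.18 by fold (adjusted p = 0.0520). Thus the gene end of E2F1 rose while this region, by pileup rank, fell.

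**Figure D5:**
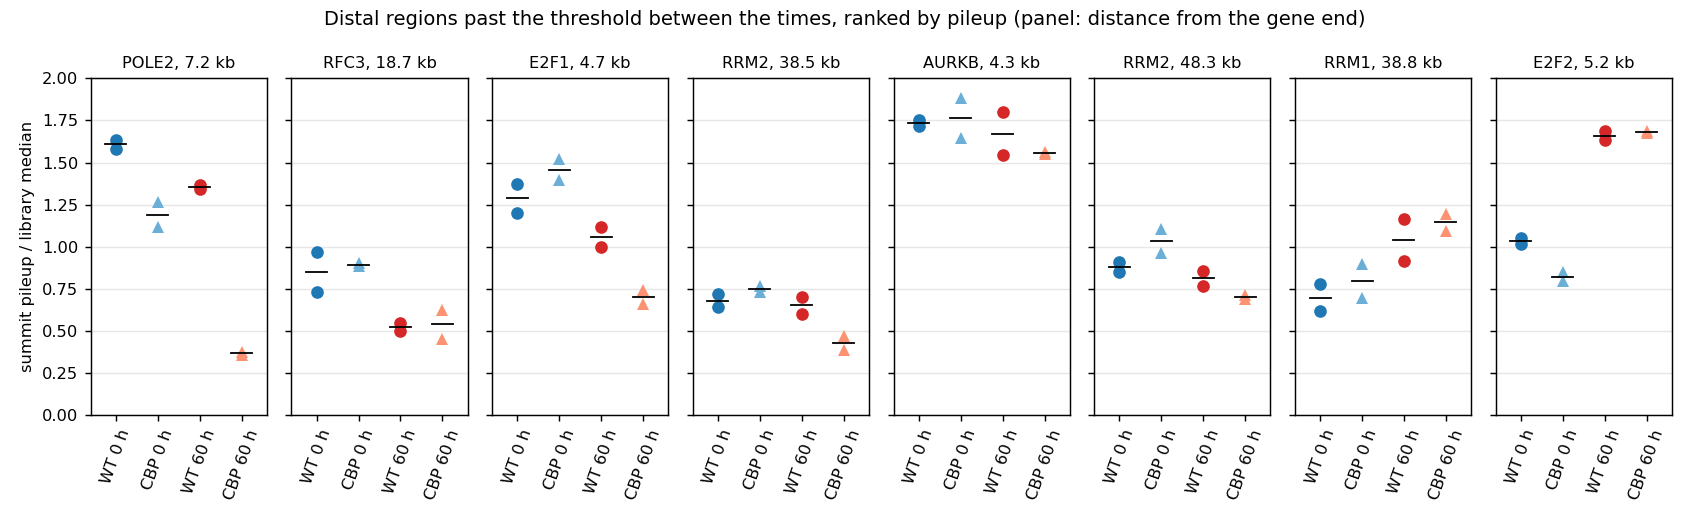
Summit pileup relative to the library median (vertical axis) in the 4 groups at the 8 distal regions that passed between the times by pileup rank, titled by gene and distance in kb. The share of all distal regions that did so is not given here. Points are libraries (blue at 0 h, red at 60 h, triangles CBP) and bars group means. POLE2 is at 0.38 and 0.35 in CBP 60 h and at 1.12 or more in all other libraries, and E2F2 and RRM1 are higher at 60 h.

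Among 98 further genes of replication, cycle control and mitosis, 96 were placed, with 569 regions. A gene-end region called in all 8 libraries was found at 37 of 39 replication genes, 22 of 22 control genes and 33 of 35 mitosis genes. Over all 8 libraries 33 of the 569 closed and none opened, which is 5.8% beside 5.47% of all linked regions closed and 0.109% opened. By fold rank 52 of 95 gene ends called in all 8 libraries were higher at 60 h and none lower in limma, beside 40.7% and 3.17% of all gene ends, and the largest changes were at KIF20A (1.55), CDC25B (1.33), HMMR (1.28), RFC5 (1.27) and NUSAP1 (1.15). By pileup rank 6 of the 95 were higher and 2 lower, beside 11.1% and 3.73%.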

How the data were processed

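ATAC-seq peak lists of 8 libraries were used. Reads were processed with Trimmomatic and MACS2 2.1.0 on Sscrofa11.1, per the submitters' processing notes; for the aligner, duplicate removal and any shift of reads: not given in the sources used here. The deposited lists hold, per peak, the authors' fold over background (a ratio), −log10 p and −log10 q, and an integer score, which was not analysed here. No read counts were used, so depth is known only through list length and summit pileup. Summit pileup was solved for from the deposited ratio and −log10 p of each peak, and came out whole for 100% of 864686 peaks (tolerance 0.01 in −log10 p).

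Regions were linked to RefSeq genes of Sscrofa11.1 on chromosomes 1 to 18 and X. The members and lists were chosen with earlier results of these data known. Strength was tested with limma 3.58.1 (R 4.3.3) at an adjusted p of 0.05, and the rest computed with Python 3.11.15, numpy 2.4.6, pandas 2.3.3, scipy 1.17.1 and matplotlib 3.10.9. The test was checked on simulated data. Genes named are those with a region opened or closed in any comparison, those with a gene end past the threshold, and the 5 gene ends with the largest change each way per contrast; distal regions are named in addition, chosen after their values were seen. Replicate numbers were not used as pairs: deviations of same-numbered libraries correlated at −0.02 to 0.02. Whether same-numbered libraries belong together is not given, and 2 libraries per group cannot settle it. Alternatives were equal peak numbers, stricter peaks, larger overlap, shorter links, other ranks, a replicate block and leaving out each library; ranking by pileup or among gene ends only, and a trended prior variance, were chosen after seeing the data. Where a group is left with 1 library, limma takes its spread from the other groups. The comparisons share libraries and are not independent of each other. No share of all regions is given for passing under every alternative. A planned motif search was not run, since no sequence was used here. Some marker genes are not reported here.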

Additional observations from a re-analysis of the deposited data

Results flagged for a closer look

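At the gene end of BUB1, a kinase of the spindle checkpoint, both WT libraries of 60 h lay below those of 0 h by fold percentile and both CBP libraries of 60 h lay above theirs. The fold percentile was 89.9 and 89.7 in WT 0 h and 88.8 and 87.8 in WT 60 h, while it was 79.2 and 80.3 in CBP 0 h and 95.0 and 87.6 in CBP 60 h. In normal score the change was −0.08 (SE 0.25, adjusted p = 0.857 in limma) in WT and 0.57 (SE 0.25, adjusted p = 0.134) in CBP, and neither passed. The difference of the time changes in normal score was 0.65 (SE 0.36) and did not pass the test (adjusted p = 0.554 in limma). By pileup rank it was 0.25, with an adjusted p = 0.652 in limma. The pileup percentiles in CBP overlapped, at 76.7 and 78.0 at 0 h and 81.6 and 76.5 at 60 h. Relative pileup rose under both labels. It was 1.72 and 1.72 in WT 0 h, 1.89 and 1.83 in WT 60 h, 1.46 and 1.56 in CBP 0 h and 1.91 and 1.71 in CBP 60 h. The share of all gene ends that moved in opposite directions by fold is not given here.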

How the results depend on the processing

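Calls depended on list length and on the rule. With equal peak numbers the closed counts were 3 (WT between the times), 9 (CBP), 2 (labels at 0 h), 5 (labels at 60 h) and 1 (8 libraries). With −log10 q of at least 5 the opened counts were 1 (WT), 0 (CBP), 2 (labels at 60 h) and 0 (8 libraries). With 50% of a region covered the opened counts were 1 (WT), 8 (labels at 0 h) and 0 (8 libraries), and the closed counts 34 (CBP) and 6 (labels at 60 h). With links within 10 kb the opened counts were 1 (WT), 2 (labels at 0 h) and 1 (labels at 60 h), and the closed counts 14 (WT), 14 (CBP) and 3 (labels at 0 h). For the −log10 q, 50% and 10 kb settings no share of all linked regions is given, so they show only how the counts moved. Leaving out 1 library gave opened counts of 2 to 7, 3 to 8, 6 to 15, 5 to 12 and 1 to 2, and closed counts of 27 to 44, 29 to 42, 8 to 19, 5 to 8 and 9 to 13, for WT, CBP, labels at 0 h, labels at 60 h and 8 libraries; the looser rule raises these by construction. In relative strength, the higher counts for both labels together, WT and CBP were 8, 3 and 5 by −log10 p, 12, 1 and 4 among gene ends only (fewer regions tested) and 4, 2 and 4 by pileup, and leaving out 1 library gave 20 to 37, 0 to 17 and 1 to 18. The lower counts were 1, 1 and 1 among gene ends only, beside 10.0%, 3.32% and 4.04% of all gene ends. For WT they were 0 by −log10 p and 0 by pileup, beside 2.49% and 2.89% of all regions. For CBP against WT at 60 h the higher count was 0 by log2 fold and 0 without any 1 library, and the lower count 3 by −log10 p, 2 with equal peak numbers, 3 by log2 fold, 0 among gene ends only and 4 by pileup. Over all regions, the higher shares by −log10 p were 12.8% for both labels together, 2.70% for WT and 7.54% for CBP. Among gene ends only they were 10.3%, 2.14% and 2.76%, and by pileup 3.35% for WT and 9.14% for CBP. The replicate block gave 36 higher and 7 lower, beside 17.9% and 15.1% of all regions, and for WT 1 lower in place of 2. By −log10 p, changes between the times turned sign at CCNB2 (−0.25), MCM4 (−0.15), TYMS (−0.045), CCNA2 (−0.28), RFC4 (−0.0072) and the AURKB region at 4264 bp (−0.27). By pileup they did at CCNB2 (−0.13), MCM7 (−0.21), PLK1 (−0.0057), RRM2 (−0.41), MCM4 (−0.26), E2F7 (−0.014), the GINS2 region at 43894 bp (−0.24), TYMS (−0.27), ORC1 (−0.085), CDC20 (−0.38), MCM3 (−0.040), CCNA2 (−0.26), RRM1 (−0.21), TOP2A (−0.19), CDC6 (0.054), the AURKB region (−0.44), MCM2 (−0.15), RFC4 (−0.20), CDC45 (−0.047) and GINS1 (−0.018). The cause was not tested.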
